A study of Mus musculus with 8 samples.

Results

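The comparison described here is the line by medium interaction: the change on EGF withdrawal in the organoid line CTO19 minus the change in the line apsMC706, over all genes. All 8 libraries of the series entered it, 2 in each of 4 groups. Of 32728 genes in the count table, 16719 had enough counts to be tested, and 9366 of these differed in response between the lines at an adjusted p under 0.05 (56% of genes tested). A gene was said to move in opposite directions when it rose in one line, fell in the other, and passed that threshold in each line and in the interaction. This held for 2220 genes (13.3%). Of them, 983 were higher without EGF in CTO19 and lower in apsMC706 (5.88%), and 1237 were higher in apsMC706 and lower in CTO19 (7.4%). Counts of opposite genes in the lists below are to be read beside these shares, and no list was tested against them.

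Both lines are mouse colon cancer organoids, epithelial cells that grow as self-organising spheres in a gel, from C57BL/6 mice. In both, Apc, Trp53 and Smad4 were knocked out with CRISPR, so controls and EGF-free cultures carry the same 3 alterations (APS). The line apsMC706 is labelled female and CTO19 male. Control medium (EM) held B27, noggin, galunisertib and EGF and was used for 3 days, and the noEGF medium lacked EGF for 7 days. Medium and days in culture therefore cannot be told apart, and neither can line and sex. Each line is a single culture line, and nothing in the labels says that its 2 libraries per group came from separate cultures, so p-values measure the spread between these libraries, which may be technical.

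Libraries held 35650262 to 38953838 counts, and 3 counts, the most that a count of 0 allows, corresponded to 0.0745 to 0.0868 CPM (counts scaled by the library total). That limit covers counting error only. The share of counts from mitochondrial transcripts was 2.94% to 3.68% with EGF and 4.13% to 5.19% without. Transcripts of Apc, Trp53 and Smad4 were counted in all 8 libraries, and with no unedited sample their levels check no label. The epithelial genes Epcam (345 to 648 CPM) and Cdh1 (591 to 941 CPM) were high throughout. The intestinal epithelial markers differed in direction between the lines. Vil1, of the brush border, was 25.8 to 62.4 CPM there against 166 to 226 in apsMC706, and the intestinal homeobox gene Cdx2 was 0.861 to 2.30 against 9.23 to 10.2. The keratin gene Krt8 was higher in CTO19 (888 to 990 CPM against 377 to 535), and the summed level of the 12 markers was 3101 to 4037 CPM there and 3720 to 3859 in apsMC706. Krt6b, a keratin of stratified epithelium, was 621 to 991 CPM in CTO19 and 0.927 to 3.33 in apsMC706. The summed level of 12 fibroblast markers was 16.2 to 45.6 CPM, of 14 immune markers 1.53 to 13.6 CPM and of 12 endothelial, glial and muscle markers 5.67 to 32.0 CPM. These 3 sums were higher in noEGF than in EM in both lines, Des and Tyrobp had no count in any library, and the part of other cell types in the results was not tested. In bulk RNA, fewer cells of a type and less RNA per cell cannot be told apart.

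EGF binds the receptor Egfr on epithelial cells and activates the RAS, RAF, MEK and ERK kinases and the PI3 kinase pathway. ERK induces transcription factors of the FOS, EGR and ETS families together with its own inhibitors, the DUSP phosphatases and the Sprouty proteins, and PI3 kinase signalling promotes glucose use and protein synthesis. The interaction asks whether the lines answer the withdrawal alike, and for a gene that moved in opposite directions an average over the lines describes neither.

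Most genes that responded in both lines moved the same way. In apsMC706 34.1% of tested genes rose without EGF and 33.1% fell, and in CTO19 34.7% rose and 33.3% fell. Of the 8171 genes past the threshold in both lines, 5951 had the same sign and 2220, or 27.2%, the opposite sign. Among the 9366 interaction genes, 2220 were opposite, 1844 fell in both lines by different amounts, 1398 rose in both by different amounts, 2084 passed in apsMC706 alone, 1733 in CTO19 alone and 87 in neither. Many opposite changes were small: 430 genes (2.57% of those tested) moved by at least 1.5-fold in each line and 187 (1.12%) by at least 2-fold. The median size of the change in the genes higher in apsMC706 was 0.47 on the log2 scale there and 0.40 in CTO19, and in the genes higher in CTO19 it was 0.41 in apsMC706 and 0.38 in CTO19. For all 2220 genes the noEGF libraries lay apart from the EM libraries in both lines, which the criterion itself favours.

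**Figure D1:**
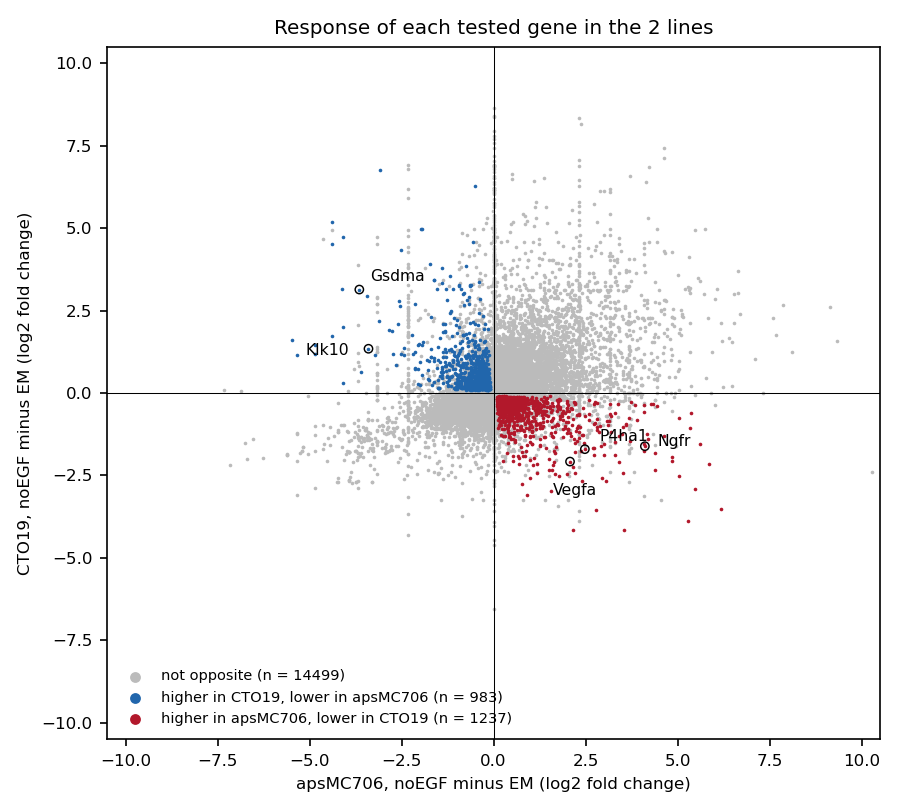
Log2 fold change on EGF withdrawal in apsMC706 (horizontal axis) and CTO19 (vertical axis), one point for each of the 16719 tested genes. The 983 blue genes rose in CTO19 and fell in apsMC706, the 1237 red genes did the reverse, and 5 genes described in the text are ringed. Vertical rows of grey points are genes with very few counts in apsMC706.

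The counts depended on how libraries were scaled. Under the TMM factors used here the median interaction of all tested genes was 0.06 on the log2 scale, and 5083 genes had the higher response in CTO19 (30.4%) against 4283 with the lower (25.6%). With DESeq2 size factors the interaction genes split evenly, 4657 and 4657. With upper-quartile factors they split 4436 and 4841, and with TMM factors taken against a CTO19 library 4348 and 4901, so no excess in either direction is stated. The split also turned without CTO19 noEGF replicate 1 (4405 and 4826) or replicate 2 (4298 and 4727). The median interaction of all tested genes lay between -0.03 and 0.06 under the 4 scalings, and list medians shift with it. The share of opposite genes that were higher in CTO19 was 44.3% here and 39.7%, 36.5% and 35.4% under the other scalings. The opposite genes themselves were steadier: 1971 of the 2220 (88.8%) were called in the same direction under all 4 scalings, 762 of them higher in CTO19 and 1209 higher in apsMC706.

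Opposite change also altered which line held the higher level. Of the 983 genes higher in CTO19, 442 were more abundant in apsMC706 in EM and more abundant in CTO19 in noEGF, and the same switch in the other sense was found for 386 of the 1237 genes higher in apsMC706. Of those 1237, 552 were higher in apsMC706 in both media and 299 higher in CTO19 in both. The remaining genes of the first group comprised 370 that were higher in CTO19 in both media and 171 that were higher in apsMC706 in both.

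Genes that rose in CTO19 and fell in apsMC706 were led by Gsdma, a gasdermin whose cleaved form makes pores in membranes (ENSMUSG00000017204, chr11:98664351-98677708, mm10). Its level was 16.4 and 16 CPM in the apsMC706 EM libraries and 1.23 and 1.35 in noEGF, and 7.93 and 6.66 CPM in CTO19 EM and 59.8 and 68.7 in noEGF. The EM libraries were thus high in apsMC706 and low in CTO19, the noEGF libraries the reverse, and EM and noEGF overlapped in neither line. The log2 fold change was -3.65 (SE 0.13, edgeR adjusted p = 1.355e-11) in apsMC706 and 3.14 (SE 0.09, adjusted p = 2.179e-12) in CTO19, an interaction of 6.79 (SE 0.16, adjusted p = 9.484e-13). Its neighbours Gsdma2 and Gsdma3 moved likewise, with interactions of 7.28 and 6.38, at levels of 5.86 CPM or less in every library. The 3 genes are similar copies that lie side by side (chr11:98626360-98677708), so reads may be shared among them. Of 9 gasdermins tested, 5 were opposite and all 5 rose in CTO19, against 5.88% of all tested genes in that direction. The other members were Gsdmc2 and Gsdmc3, both under 1 CPM. Gsdmc2 had no count in apsMC706 noEGF and a mean of 0.0669 CPM in apsMC706 EM, below the floor of 0.0805. Its call was lost with the Wald test of DESeq2 and on leaving out some single apsMC706 libraries.

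Other leading genes of this direction were of several kinds. Fabp5, a fatty acid carrier abundant in epidermis (ENSMUSG00000027533, chr3:10012548-10016607), was 23.5 and 22.4 CPM in apsMC706 EM, 9 and 9.30 in noEGF, 124 and 133 in CTO19 EM and 306 and 337 in noEGF. It was higher in CTO19 in both media, and the 2.51-fold fall in apsMC706 was matched by a 2.50-fold rise in CTO19. Klk10, a kallikrein of stratified epithelium, fell by 3.40 on the log2 scale in apsMC706, where it was 0.191 and 0.238 CPM in noEGF, and rose by 1.34 in CTO19, from 88.3 and 83.4 to 211 and 225 CPM. Tgm5, a transglutaminase that cross-links proteins of the cornified layer, fell 3.06-fold and rose 10.8-fold, and Coro2b, an actin-binding coronin, fell 3.06-fold and rose 10.9-fold. Chit1 (chitotriosidase) and Adamts7 (a secreted metalloprotease, whose exons overlap those of Tbc1d2b) had interactions of 4.66 and 3.17. In apsMC706 Chit1 had few counts, 28 and 28 in EM and 5 and 3 in noEGF.

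The calls of 3 other leading genes of this direction did not hold under every alternative. For Rbp2, a carrier of retinol in enterocytes, the apsMC706 EM libraries held 15 and 21 counts and the noEGF libraries 3 and 3. Its adjusted p for apsMC706 rose from 0.01837 to between 0.055 and 0.082 without apsMC706 EM replicate 2, either apsMC706 noEGF replicate or either CTO19 EM replicate, and to 0.0726 with limma-voom. Cpn1, a carboxypeptidase subunit, was 1.91 and 6.44 CPM in the CTO19 noEGF libraries, and its adjusted p for CTO19 rose from 0.0319 to between 0.0586 and 0.15 when any apsMC706 library or either CTO19 EM library was left out, to 0.0575 with no filter on low counts and to 0.0638 with a replicate block. Sema3a, a secreted guidance protein, had an adjusted p of 0.0482 in apsMC706, which rose to between 0.0598 and 0.267 under 10 of 18 alternatives, among them the other 3 scalings and the loss of apsMC706 EM replicate 2 (0.267), apsMC706 noEGF replicate 1 (0.108) or 2 (0.165), and CTO19 EM replicate 1 (0.125) or 2 (0.122).

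Some regulators of epithelial identity were opposite. Foxa1, a pioneer transcription factor of endoderm (ENSMUSG00000035451, chr12:57540628-57546916), was 338 and 329 CPM in apsMC706 EM, 203 and 204 in noEGF, 124 and 125 in CTO19 EM and 269 and 266 in noEGF. The line with more Foxa1 was apsMC706 in EM and CTO19 in noEGF, with no overlap between groups (interaction 1.82, SE 0.05, adjusted p = 4.323e-12). Of 20 lineage transcription factors tested, 4 were opposite and all 4 rose in CTO19, Foxa1 and Hnf4a among them. In apsMC706 6 of the 20 rose and 7 fell, and in CTO19 11 rose and 1 fell. Hnf4a, a nuclear receptor of intestinal epithelium, was 71.6 and 70.0 CPM in apsMC706 EM and 52.0 and 55.5 in noEGF, against 0.0289 and 0.112 in CTO19 EM and 0.565 and 0.969 in noEGF. Its rise in CTO19 was therefore one between very low levels. Lgals4, a galectin of enterocytes, fell 2.15-fold in apsMC706 from 405 and 393 CPM and rose 1.94-fold in CTO19 from 8.39 and 9.10 CPM.

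Hox genes, which carry positional identity along the gut, mostly fell in apsMC706 (1 rose and 12 fell of 22 tested) and more often rose than fell in CTO19 (13 rose and 4 fell). Of the 22, 7 were opposite, and 6 of these rose in CTO19: Hoxa10, Hoxb6, Hoxa11, Hoxb13, Hoxa13 and Hoxb9. Hoxb6 was 22.3 and 21.3 CPM in apsMC706 EM, 12.3 and 12.3 in noEGF, 75.6 and 67.0 in CTO19 EM and 132 and 127 in noEGF. Hoxa10 fell 2.42-fold in apsMC706, from 120 and 118 CPM, while its CTO19 levels lay between 0.0281 and 0.398 CPM. Hoxb13 had no count in CTO19 EM and 0.135 and 0.373 CPM in noEGF, which was at least 2.96-fold higher against the floor of 3 counts per library. The Hoxb9 call was lost under another scaling, and Hoxa11, whose exons overlap Hoxa11os, lost its call in CTO19 without CTO19 EM replicate 2 (adjusted p = 0.116) or noEGF replicate 2 (0.340).

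Most genes of fatty acid oxidation rose in CTO19. In CTO19 23 of 24 tested genes of fatty acid oxidation rose and 0 fell, while in apsMC706 10 rose and 6 fell. The 6 that fell were the opposite genes of the list: Acaa2, Acadm, Hadha, Hadhb, Ehhadh and Acot1. Acaa2, the thiolase of the last step of the cycle, was 28.4 and 29.4 CPM in apsMC706 EM, 15 and 16.1 in noEGF, 30.7 and 33.5 in CTO19 EM and 56.6 and 55.1 in noEGF. The EM levels lay close together and the noEGF levels far apart (interaction 1.69, SE 0.09, adjusted p = 7.945e-10). Acadm, a medium-chain acyl-CoA dehydrogenase, had log2 fold changes of -0.38 and 0.43. Ehhadh and Acot1 lost the call in apsMC706 under the other 3 scalings (adjusted p 0.0511 to 0.103), so 4 of the 6 were called alike under all 4. Ehhadh also lost it without apsMC706 EM replicate 2 (0.236), either apsMC706 noEGF replicate (0.0572 and 0.210) or either CTO19 noEGF replicate (0.0802 and 0.0794), and Acot1 without either apsMC706 EM replicate (0.0730 and 0.0861) or apsMC706 noEGF replicate 1 (0.128). Hadha lay at the threshold, with an adjusted p of 0.04996 in CTO19, as did Adm2 (0.04999), and the nearest genes outside it were Tbce (0.05) and Tmem242 (0.05008).

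Other metabolic lists also held some opposite genes. Of 40 nuclear genes of oxidative phosphorylation, 28 had the higher response in CTO19 and 4 were opposite, Cox6b1, Ndufa4 and Cox5b among them, all higher in CTO19. In apsMC706 3 of the 40 rose and 30 fell, and in CTO19 11 rose and 11 fell. Ndufa4, a small subunit of the respiratory chain, was 139 and 136 CPM in apsMC706 EM and 69.0 and 69.2 in noEGF, and 125 and 136 in CTO19 EM and 154 and 157 in noEGF. In cholesterol synthesis most genes fell in both lines, 23 of 25 in apsMC706 and 15 in CTO19, and 5 were opposite, 4 of them higher in CTO19. Id2, an inhibitor of basic helix-loop-helix factors and a target of BMP signalling, fell 2.13-fold in apsMC706 and rose 1.65-fold in CTO19. The cell cycle inhibitors Cdkn1a and Cdkn2a had interactions of 0.96 and 0.69, and Cdk4, the kinase of the D cyclins, one of 0.81.

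**Figure D2:**
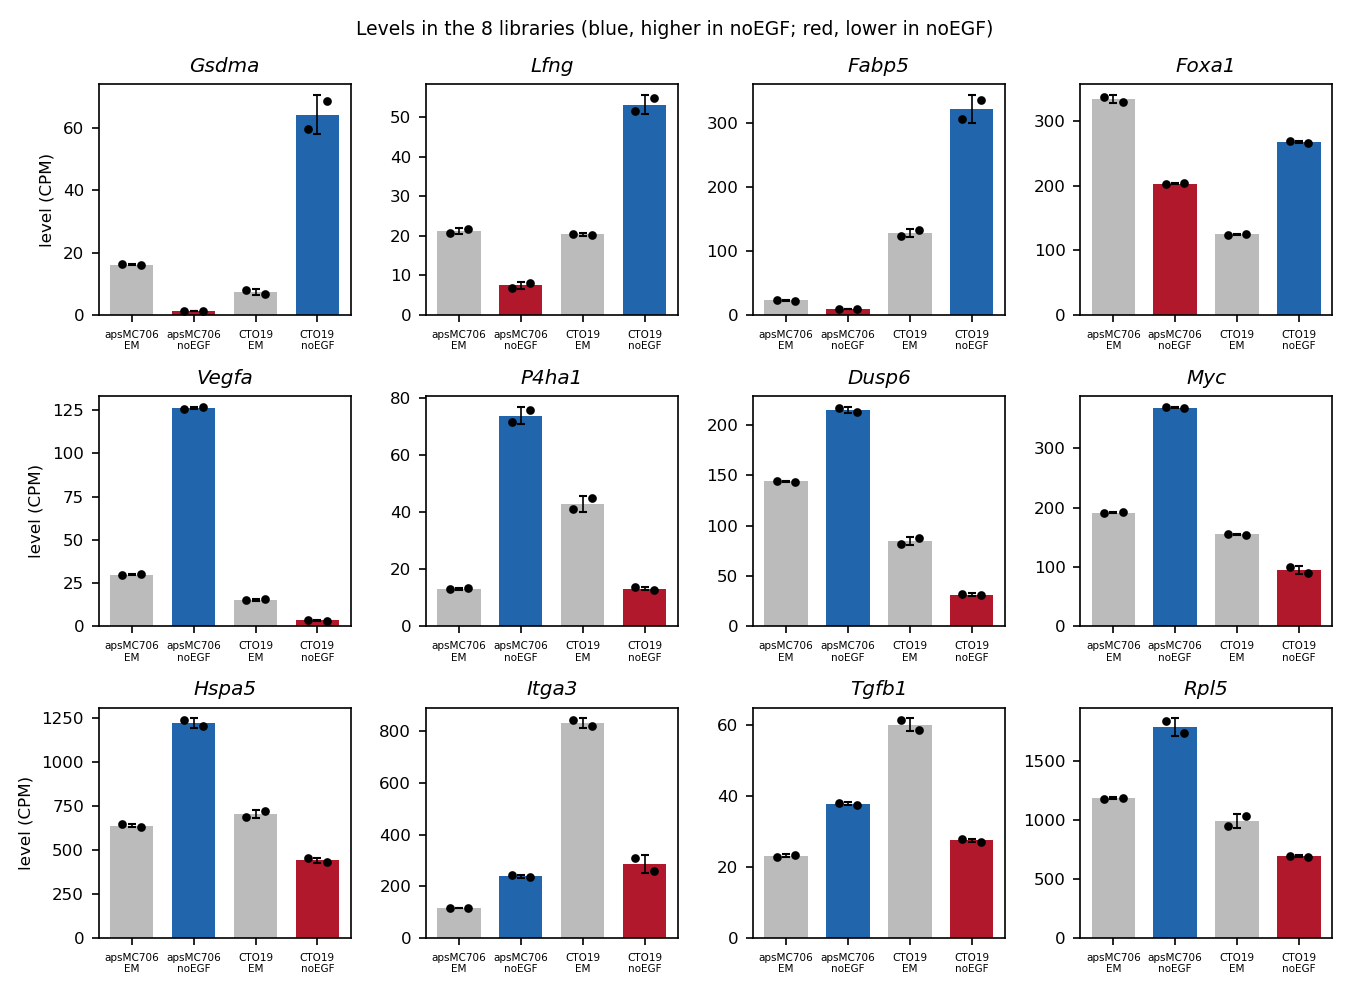
Level in CPM (vertical axes, starting at 0) of 12 genes in each library (points), with bars at each group mean and error bars of 1 SD (n = 2). Grey bars are EM, and blue and red bars are noEGF groups that were higher or lower than EM of the same line. In every panel 1 line has a blue noEGF bar and the other a red one, as for Vegfa, at 126 and 127 CPM in apsMC706 noEGF and 3.85 and 3.40 in CTO19 noEGF.

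In the opposite direction, 20 of 32 genes of hypoxia and glycolysis rose and 9 fell in apsMC706, and 5 rose and 22 fell in CTO19. Vegfa, which encodes the growth factor that draws in blood vessels (ENSMUSG00000023951, chr17:46016993-46032369), was 29.6 and 30.1 CPM in apsMC706 EM and 126 and 127 in noEGF, and 15 and 15.6 CPM in CTO19 EM and 3.85 and 3.40 in noEGF. It was higher in apsMC706 in both media, and the gap widened without EGF (interaction -4.16, SE 0.09, adjusted p = 2.328e-13). P4ha1, a prolyl hydroxylase of collagen (ENSMUSG00000019916, chr10:59323296-59373304), was 12.9 and 13.5 CPM in apsMC706 EM, 71.5 and 75.9 in noEGF, 40.9 and 45.0 in CTO19 EM and 13.6 and 12.8 in noEGF, so that the order of the lines switched. Of 32 tested genes of the list, 14 were opposite and all 14 rose in apsMC706, against 7.4% of all tested genes in that direction. The median log2 fold change was 0.59 in apsMC706 and -0.57 in CTO19, beside 0.00 and 0.02 over all tested genes.

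The glycolytic enzymes among the 14 were Hk1 (hexokinase), Gpi1, Pfkp and Pfkl (phosphofructokinase), Aldoa (aldolase), Tpi1 and Pgk1 (phosphoglycerate kinase). Pfkp was 152 and 153 CPM in apsMC706 EM, 319 and 312 in noEGF, 108 and 107 in CTO19 EM and 52.8 and 52.3 in noEGF. It rose 2.07-fold in apsMC706 and fell 2.04-fold in CTO19. The others were Pdk1, which restrains pyruvate entry into mitochondria, Egln3 and Hif1a of the oxygen-sensing machinery, Car9, Ndrg1, Vegfa and P4ha1. Car9 had few counts in apsMC706, 5 and 4 in EM and 15 and 15 in noEGF. Not all of glycolysis took part. Ldha, which makes lactate, fell in both lines, by 0.25 on the log2 scale in apsMC706 and 1.11 in CTO19, and the glucose transporter Slc2a1 fell by 0.59 and 0.62 (interaction -0.03, SE 0.07, adjusted p = 0.8009). All 14 genes were called in the same direction under the 4 scalings.

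Promoters of these genes are shown because the hypoxia-inducible factors bind a short core that can be looked for by its letters. The core ACGTG, read on both strands and overlapping the E-box CACGTG, was searched in RefSeq promoters (GRCm38.p6, 250 bases before to 50 after the start), which were found for 11484 tested genes with 14507 windows. It lay in 24.0% of all windows, in 31.3% of windows of opposite genes higher in apsMC706 and in 20.3% of those higher in CTO19. Of the 43 windows of tested hypoxia and glycolysis genes, 24 held it, and of the 18 windows of its opposite genes 9 did. The motif was chosen after these values were known. Of 6 other motifs searched on both strands, AP-1 (TGANTCA) lay in 6.01% of all windows, in 6.64% of windows of opposite genes higher in apsMC706 and in 5.47% of those higher in CTO19. In the same order the shares were 2.61%, 2.21% and 3.38% for FOXO (TGTTTAC), 2.72%, 2.42% and 2.59% for TCF/LEF (CTTTGAT) and 12.6%, 13.1% and 13.1% for TEAD (GGAATG). They were 3.04%, 2.95% and 3.08% for IRF (GAAA, a gap of 2 bases and GAAA) and 9.33%, 10.8% and 6.87% for the E-box. The 250 bases before the start of P4ha1 and Pgk1 are given 5′ to 3′, with the core in capitals in either orientation.
P4ha1, chr10:59323046-59323295, plus strand: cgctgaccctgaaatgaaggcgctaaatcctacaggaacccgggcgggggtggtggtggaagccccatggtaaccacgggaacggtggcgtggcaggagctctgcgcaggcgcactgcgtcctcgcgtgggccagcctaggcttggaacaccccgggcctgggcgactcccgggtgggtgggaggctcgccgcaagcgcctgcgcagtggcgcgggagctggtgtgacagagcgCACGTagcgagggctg
Pgk1, chrX:106186850-106187099, plus strand: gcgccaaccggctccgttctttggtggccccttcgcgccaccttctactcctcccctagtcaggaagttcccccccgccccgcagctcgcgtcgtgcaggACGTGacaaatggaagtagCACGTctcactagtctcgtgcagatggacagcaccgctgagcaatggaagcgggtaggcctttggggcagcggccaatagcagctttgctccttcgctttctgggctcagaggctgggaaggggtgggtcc

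Pgk1 was 607 and 625 CPM in apsMC706 EM, 1455 and 1503 in noEGF, 648 and 711 in CTO19 EM and 353 and 344 in noEGF. The EM groups of the 2 lines lay near each other and the noEGF groups lay on either side of them. A match is a run of letters and shows no binding.

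Chaperones of the endoplasmic reticulum had a similar split. The unfolded protein response senses misfolded secretory proteins through Ire1, Perk and Atf6 and induces chaperones and disulfide isomerases. Hspa5, its central chaperone (BiP) (ENSMUSG00000026864, chr2:34771970-34777547), was 647 and 632 CPM in apsMC706 EM, 1241 and 1204 in noEGF, 687 and 721 in CTO19 EM and 453 and 433 in noEGF. The EM levels differed little between lines, and noEGF was higher in both apsMC706 libraries and lower in both CTO19 libraries (log2 fold changes 0.93 and -0.67, interaction -1.60, SE 0.06, adjusted p = 3.281e-11). Of 23 tested genes, 18 rose and 3 fell in apsMC706, 5 rose and 16 fell in CTO19, 11 were opposite and all 11 rose in apsMC706, and all 11 were called alike under the 4 scalings. They were the chaperones and their partners Hspa5, Hsp90b1, Hyou1, Calr, Dnajc3, Sdf2l1 and Manf, the disulfide isomerases Pdia3, Pdia4 and Pdia6, and Creld2. Pdia6 rose 1.60-fold and fell 1.68-fold. Xbp1 and Dnajb9 rose in both lines and further in apsMC706 (interactions -1.31 and -0.57), and Derl3 rose in apsMC706 by 2.89 on the log2 scale.

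The endoplasmic reticulum stress element, to which Atf6 binds, is shown in these promoters for the same reason. It is CCAAT and CCACG on the same strand with a gap of 9 bases, was searched on both strands, and was chosen after the values were known. It lay in 19 of the 14507 windows (0.131%), each of a different gene. Of those 19 genes, 9 belonged to the list used here, 12 had the lower response in CTO19 and 2 the higher. Calr, Creld2, Dnajc3, Hsp90b1, Hspa5 and Pdia6 were opposite and higher in apsMC706, and 0 of the 19 were opposite and higher in CTO19. All 6 belong to the list and are among its opposite genes given above, so they add no separate count. The 250 bases before the RefSeq start of 3 of them follow, 5′ to 3′, with the element and its gap in capitals. Hsp90b1 carries it on both strands.
Hspa5, chr2:34771840-34772089, plus strand: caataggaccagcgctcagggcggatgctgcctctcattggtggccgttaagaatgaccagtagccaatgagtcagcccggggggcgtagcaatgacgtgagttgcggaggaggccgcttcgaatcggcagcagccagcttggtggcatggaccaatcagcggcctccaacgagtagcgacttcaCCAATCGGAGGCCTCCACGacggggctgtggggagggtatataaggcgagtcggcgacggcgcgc
Pdia6, chr12:17266339-17266588, plus strand: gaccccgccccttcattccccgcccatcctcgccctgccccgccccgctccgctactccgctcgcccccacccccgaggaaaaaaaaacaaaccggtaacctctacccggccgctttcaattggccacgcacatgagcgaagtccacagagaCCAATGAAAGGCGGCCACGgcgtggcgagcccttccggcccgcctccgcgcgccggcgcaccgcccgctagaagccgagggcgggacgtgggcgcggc
Hsp90b1, chr10:86705445-86705694, minus strand: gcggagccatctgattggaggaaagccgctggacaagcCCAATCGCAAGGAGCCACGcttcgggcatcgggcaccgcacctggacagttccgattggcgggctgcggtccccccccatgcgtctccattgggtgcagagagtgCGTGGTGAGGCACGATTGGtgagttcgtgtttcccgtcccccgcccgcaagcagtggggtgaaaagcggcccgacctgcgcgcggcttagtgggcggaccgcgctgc

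Hsp90b1 was 718 and 731 CPM in apsMC706 EM, 1080 and 1074 in noEGF, 689 and 710 in CTO19 EM and 425 and 408 in noEGF. The pattern was that of Hspa5, with EM levels close together and noEGF levels apart in opposite senses. The amino acid response, driven by Atf4, had 6 opposite genes of 33 (18.2%, against 13.3% of all tested genes). They were all higher in apsMC706 (7.4% of all tested genes): Trib3, Stc2, Eif4ebp1, Cars, Wars and Cebpb. Trib3, a pseudokinase induced by Atf4, was 39.8 and 46.2 CPM in apsMC706 EM, 83.1 and 85.8 in noEGF, 6.51 and 6.94 in CTO19 EM and 2.93 and 3.30 in noEGF.

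**Figure D3:**
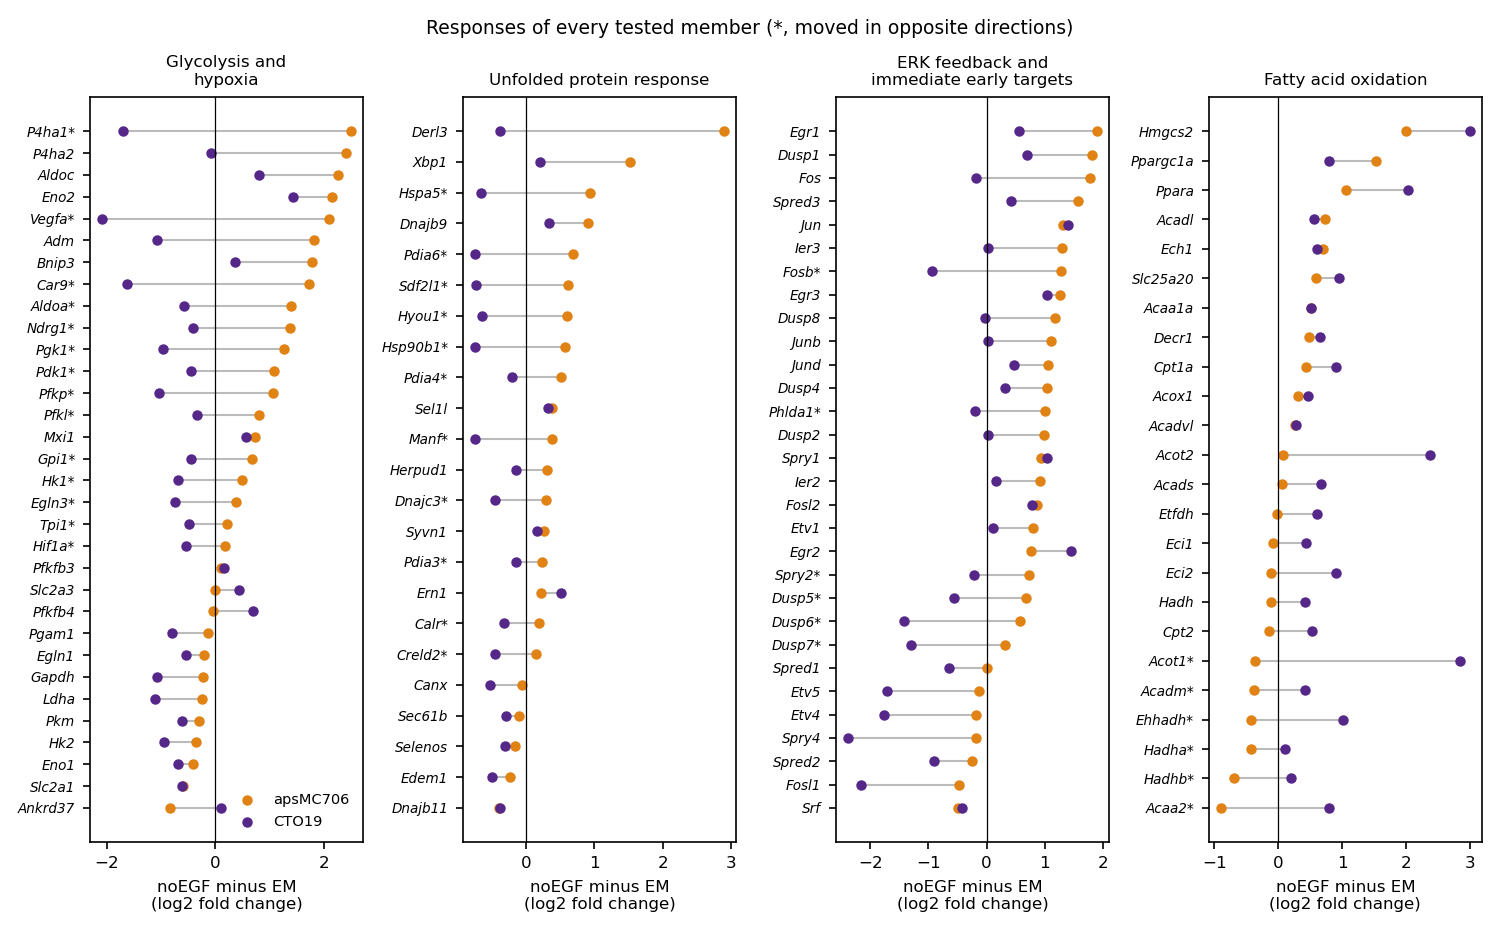
Log2 fold change on EGF withdrawal (horizontal axes) of every tested member of 4 gene lists in apsMC706 (orange) and CTO19 (purple), joined by a line. An asterisk marks opposite genes, which number 14 of 32, 11 of 23, 6 of 30 and 6 of 24 from left to right. The dot on the right of each pair is apsMC706 in the asterisked genes of the first 3 lists and CTO19 in those of the last.

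Among lists with 15 or more tested members, ribosomal proteins had the largest share of opposite genes. Of 48 tested genes of cytosolic ribosomal proteins, 34 were opposite and all 34 rose in apsMC706. In CTO19 46 fell and 0 rose, and in apsMC706 35 rose and 4 fell. The changes were small: the list's median log2 fold change was 0.23 in apsMC706 and -0.40 in CTO19. Rpl5 (ENSMUSG00000058558, chr5:107900502-107909005) was 1182 and 1189 CPM in apsMC706 EM, 1839 and 1735 in noEGF, 952 and 1033 in CTO19 EM and 699 and 687 in noEGF. Its exons overlap those of Fam69a and Snord21, and the kit does not mark strand. The count was 34 to 36 under the 4 scalings, with 33 called alike. Processed pseudogenes, copies of messenger RNA that may share reads with their parent genes, were opposite in 319 of 1645 cases, and 302 of these were higher in apsMC706. How such reads were assigned is not known. Genes of ribosome biogenesis gave another picture, with 0 opposite of 36 by this test, 33 lower in apsMC706 and 35 lower in CTO19 (up to 2 were called opposite under another scaling).

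Some readouts of ERK activity were opposite too. Dusp6, the ERK phosphatase that ERK itself induces (ENSMUSG00000019960, chr10:99263231-99267489), was 144 and 144 CPM in apsMC706 EM, 217 and 213 in noEGF, 81.7 and 87.7 in CTO19 EM and 32.4 and 30.7 in noEGF. It was higher in apsMC706 in both media, and withdrawal moved the lines further apart, with a 1.49-fold rise and a 2.69-fold fall (a 4.01-fold difference between the responses, adjusted p = 1.386e-11). Of 30 tested ERK feedback and immediate early genes, 22 had the lower response in CTO19 and 0 the higher, with 20 rising and 4 falling in apsMC706 and 11 rising and 13 falling in CTO19, and 6 were opposite, all higher in apsMC706: Dusp5, Dusp6, Dusp7, Spry2, Fosb and Phlda1. Etv4, an ETS factor downstream of ERK, fell in both lines but by 0.18 on the log2 scale in apsMC706 and by 1.77 in CTO19.

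Among 18 receptors, ligands and regulators of the EGF family 3 were opposite, all higher in apsMC706. That is 16.7%, near the 13.3% of all tested genes (7.4% in that direction). Areg (amphiregulin) was 2.57 and 2.23 CPM in apsMC706 EM, 4.20 and 3.59 in noEGF, 25.9 and 24.6 in CTO19 EM and 6.24 and 6.56 in noEGF. It rose 1.62-fold in apsMC706 and fell 3.94-fold in CTO19, where its level stayed above that of apsMC706 in both media. Hbegf rose by 1.37 and fell by 0.59 on the log2 scale, and Lrig1, an inhibitor of the receptors, rose by 0.37 and fell by 0.33 on the log2 scale. In apsMC706 10 of the 18 rose and 1 fell, and in CTO19 7 rose and 7 fell. Of the receptors, Egfr rose in apsMC706 from 14.6 and 15.1 to 32.2 and 34.0 CPM and passed no threshold in CTO19 (log2 fold change 0.15, adjusted p = 0.1964), an interaction of -1.01. Erbb3 rose in both lines, by 1.23 and 1.22 on the log2 scale, and its interaction of -0.02 (SE 0.06) did not pass (adjusted p = 0.8515).

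Myc, the transcription factor downstream of Wnt and growth factor signals (ENSMUSG00000022346, chr15:61985391-61990374), was 191 and 193 CPM in apsMC706 EM, 369 and 368 in noEGF, 156 and 154 in CTO19 EM and 99.5 and 90.2 in noEGF. Ccnd1 (cyclin D1) rose 1.31-fold in apsMC706 and fell 1.95-fold in CTO19. Without EGF both genes thus rose in the line whose S phase genes fell further. Cell cycle genes, in contrast, did not split: all 28 S phase genes and all 28 G2 and M phase genes fell in both lines, and 0 were opposite. All 28 S phase genes fell further in apsMC706 (median log2 fold change -1.52 against -0.53), and Mki67, the usual marker of cycling cells, fell by 1.70 there and by 0.72 in CTO19.

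Some inflammatory and regenerative genes were opposite, while their lists as a whole did not fall in CTO19. Of 31 genes of NF-kB signalling, cytokines and chemokines, 10 were opposite, all higher in apsMC706. In apsMC706 25 of the 31 rose and 1 fell, and in CTO19 11 rose and 12 fell. Cxcl1, a chemokine for neutrophils, was 1.90 and 1.74 CPM in apsMC706 EM, 7.36 and 7.37 in noEGF, 133 and 143 in CTO19 EM and 84.2 and 64.7 in noEGF. The lines thus drew closer, with CTO19 above apsMC706 throughout. Cxcl3, Il1a, Cxcl5, Cxcl16 and the NF-kB regulators Nfkbia, Nfkbiz, Nfkb2 and Tnfaip3 were in the same group, as was Cxcl2, whose call was lost without apsMC706 EM replicate 1 or apsMC706 noEGF replicate 2 (adjusted p = 0.0517 and 0.0502). Of 29 genes of the fetal-like and YAP programme, 9 were opposite, all higher in apsMC706, and 22 rose in apsMC706 against 0 that fell. In CTO19 13 of the 29 rose and 14 fell, with a median log2 fold change of 0.11.

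Ly6a (Sca-1), which marks regenerating and fetal-like intestinal epithelium, was 146 and 151 CPM in apsMC706 EM, 646 and 626 in noEGF, 1076 and 1153 in CTO19 EM and 883 and 759 in noEGF. The levels of the 2 lines lay closer without EGF. Its neighbours Ly6i, Ly6c1, Ly6c2 and Ly6g were opposite in the same direction (chr15:74979534-75159126), the longest run of adjacent tested genes that moved alike. They are similar copies and may share reads. In all, 446 of the 2220 opposite genes stood in 208 runs of at least 2 neighbours of the same direction. How many would do so if placed at random was not computed. Many runs hold similar copies or pseudogenes, so no clustering is stated. Ccn1, a YAP target, rose by 2.49 on the log2 scale in apsMC706 and fell by 0.71 in CTO19, and Emp1, a membrane protein, had an interaction of -1.99.

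Of 22 tested genes of desmosomes and hemidesmosomes, 7 were opposite, 4 higher in apsMC706 and 3 higher in CTO19, with a median interaction of 0.06. Jup, higher in CTO19, lost its call under the other 3 scalings, so 6 of the 7 were called alike under all 4. Pkp1, also higher in CTO19, lost its call without CTO19 EM replicate 2. Itga3, an integrin chain that binds laminin, was 116.1 and 116.1 CPM in apsMC706 EM, 244 and 236 in noEGF, 845 and 820 in CTO19 EM and 311 and 261 in noEGF. It was higher in CTO19 in both media, and the gap narrowed without EGF (interaction -2.59, SE 0.10, adjusted p = 2.264e-08). Lamb3, a laminin chain, and Itgb4, an integrin chain of hemidesmosomes, were opposite in the same direction, with interactions of -1.79 and -1.78. Of 28 squamous and basal genes 7 were opposite, 6 of them higher in apsMC706 and Krt6b higher in CTO19. The summed level of that list was 1239 to 1246 CPM in apsMC706 EM, 1850 to 1869 in noEGF, 15860 in both CTO19 EM libraries and 11940 to 13090 in noEGF. Perp went the other way: this gene of desmosome assembly fell by 0.37 on the log2 scale in apsMC706 and rose by 0.59 in CTO19. Of 25 matrix proteases and inhibitors 4 were opposite, all higher in apsMC706. Mmp13, a collagenase, was 0.0529 and 0.109 CPM in apsMC706 EM, 1.39 and 1.45 in noEGF, 40.8 and 44.1 in CTO19 EM and 14.5 and 14.5 in noEGF.

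The remaining leading genes of this direction were of several kinds. Ngfr, a neurotrophin receptor that marks basal cells of stratified epithelium, was 2.57 and 2.26 CPM in apsMC706 EM, 44.5 and 39.2 in noEGF, 130 and 141 in CTO19 EM and 44.6 and 44.0 in noEGF. It rose 17.3-fold in apsMC706 and fell 3.06-fold in CTO19, so that the levels of the 2 lines lay close together without EGF. Tns4 (a focal adhesion protein) rose 2.99-fold and fell 5.09-fold, Enpp1 (an ectoenzyme that makes pyrophosphate) rose 3.97-fold and fell 5.49-fold, and Cav1 (the coat protein of caveolae) rose 3.20-fold and fell 3.53-fold. Tigit, an immune receptor of lymphocytes, rose 4.50-fold from 4.29 and 4.11 CPM and fell 4.69-fold from 5.76 and 5.17 CPM, while the lymphocyte genes Cd3e and Ptprc were at 0.141 CPM or less in every library. Rasa4, a RAS GTPase-activating protein, had an interaction of -4.13.

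A few of these genes were near 0 in apsMC706. Fst (follistatin, which binds activins) was 0.0265 and 0.0817 CPM in apsMC706 EM and 0.518 and 0.396 in noEGF, against 119 and 123 CPM in CTO19 EM and 41.1 and 41.7 in noEGF. Wnt7a had no count in apsMC706 EM and 0.109 and 0.211 CPM in noEGF, at least 1.99-fold higher against the floor, and fell 2.91-fold in CTO19 from 33.3 CPM in both libraries. Emp3, another membrane protein, was 0.185 CPM or less in apsMC706, and its call there (adjusted p = 0.0416) was lost without apsMC706 EM replicate 1 (0.214) or 2 (0.0637), without apsMC706 noEGF replicate 2 (0.264) and with the Wald test of DESeq2 (0.0662). In all, 134 opposite genes were under 1 CPM in both media in apsMC706 and 76 were so in CTO19, while 1882 of the 2220 had a mean log2 CPM of at least 3.

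Some signalling pathways divided within themselves. In the Notch list 8 of 17 genes were opposite. The receptors Notch1 and Notch2, Hes6, Dtx4 and the glycosyltransferase Lfng rose in CTO19, while the ligands Dll1, Jag1 and Jag2 rose in apsMC706. Lfng, which modifies Notch receptors (ENSMUSG00000029570, chr5:140607320-140615545), was 20.6 and 21.9 CPM in apsMC706 EM, 6.85 and 8.08 in noEGF, 20.6 and 20.1 in CTO19 EM and 51.6 and 54.9 in noEGF. Levels in EM lay close together in the 2 lines, and those in noEGF differed in opposite senses. Jag2 rose by 0.20 on the log2 scale in apsMC706 and fell by 1.26 in CTO19. Notch1 lost its call in apsMC706 under each of the other 3 scalings (adjusted p 0.0883 to 0.135), and without any one apsMC706 library or either CTO19 noEGF library (0.0775 to 0.190).

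Of 29 genes of BMP and TGF-beta signalling, 7 were opposite. Tgfb1, Tgfbr2, Ltbp1, Inhba, Smurf1 and Bmp1 were higher in apsMC706 while Id2 was higher in CTO19. The rise of Ltbp1 rests on few counts, 0 and 1 in apsMC706 EM and 9 and 6 in noEGF. Tgfb1, the ligand (ENSMUSG00000002603, chr7:25687002-25705077), was 22.9 and 23.5 CPM in apsMC706 EM, 38.2 and 37.6 in noEGF, 61.4 and 58.8 in CTO19 EM and 27.9 and 27.2 in noEGF. The receptor Tgfbr2 rose by 0.66 on the log2 scale in apsMC706 and fell by 0.80 in CTO19. For Tgfb1 the higher level was in CTO19 with EGF and in apsMC706 without it.

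**Figure D4:**
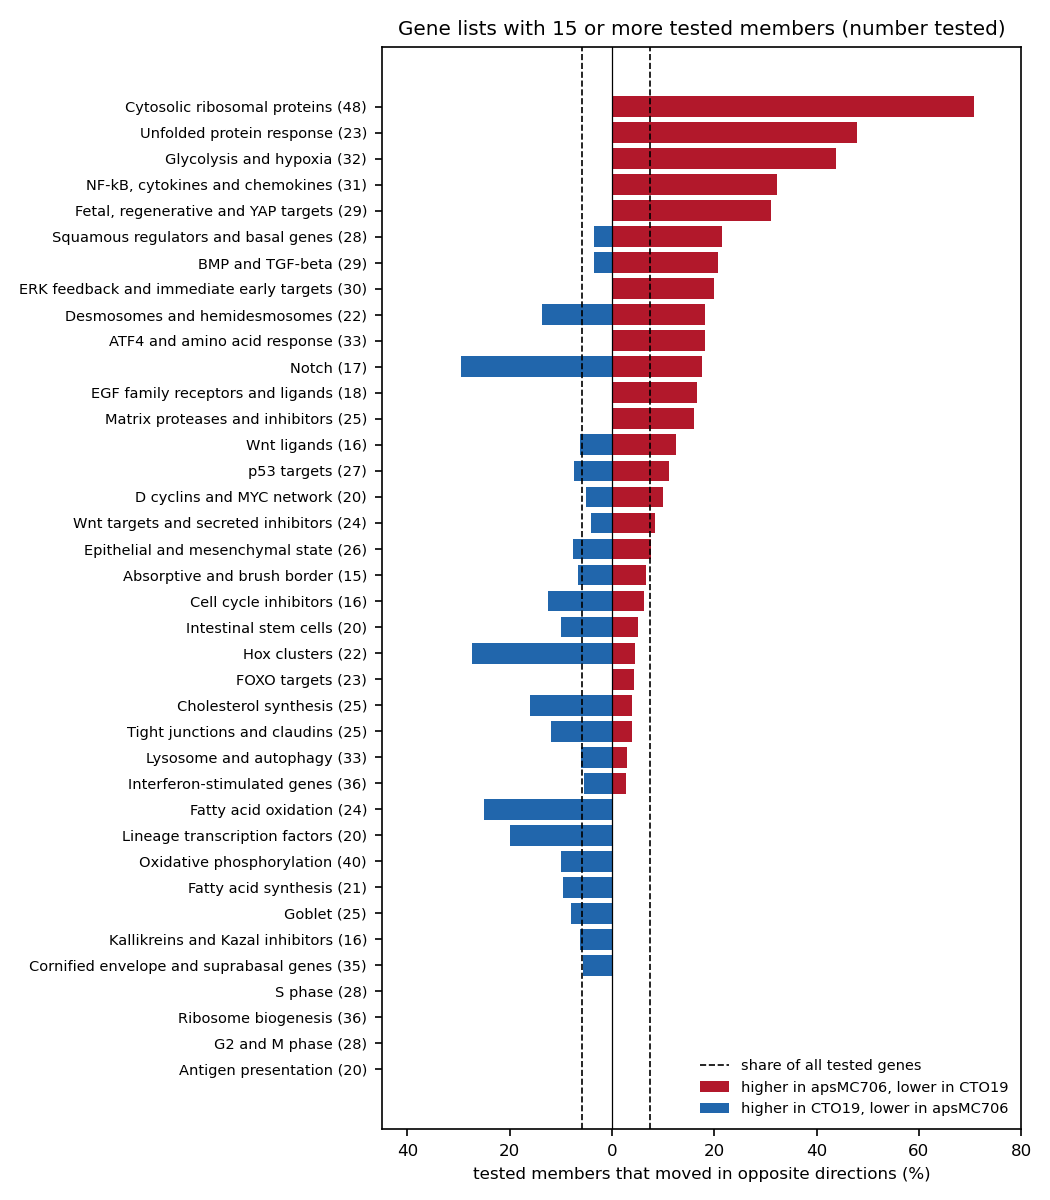
Share of the tested members that moved in opposite directions, in percent, with genes higher in apsMC706 to the right (red) and genes higher in CTO19 to the left (blue). Shown are gene lists with 15 or more tested members, and dashed lines mark the shares over all tested genes, 7.4% and 5.88%. The longest bars among them are ribosomal proteins (34 of 48), the unfolded protein response (11 of 23) and glycolysis and hypoxia (14 of 32).

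Beside the opposite genes stood large interactions of genes that were not opposite, described here by their change in CTO19. Nts (neurotensin, a gut peptide hormone) was 4.40 and 4.41 CPM in CTO19 EM and 428 and 361 in noEGF, and stayed at 0.185 CPM or less in apsMC706. Calm4, a calmodulin-like protein of epidermis, was 9.32 and 9.41 CPM in CTO19 EM and 288 and 302 in noEGF, and 0.0817 CPM or less in apsMC706. Tgfb2 went from 14.7 and 12.4 to 123 and 111 CPM in CTO19. In the other sense Il24, a cytokine of stressed epithelium, went from 33.0 and 31.4 to 2.26 and 2.06 CPM in CTO19. These genes were at or near the floor in apsMC706, so a response there of the same size could not have been seen for the genes that fell. The interactions of Tgfb2 (5.34) and Il24 (-6.22) were larger than their CTO19 changes. They therefore include a fitted apsMC706 change that rests on few counts. The cornified envelope list had 34 of 35 genes higher without EGF in CTO19 and 9 of 35 in apsMC706. Interferon-stimulated genes rose in 34 of 36 cases in CTO19 and 24 in apsMC706, and 10 of 36 passed the interaction, 5 in each direction, against 56% of all genes.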

How the data were processed

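The 8 libraries were poly(A) RNA-seq of organoids, made with a kit that does not mark strand. Reads were aligned with STAR 2.7.0a to mm10, per the submitters' processing notes, and the authors deposited raw read counts per gene. The counting program is not given in the sources used here, so how reads shared by similar or overlapping genes were assigned is not known. From these counts a model with 1 mean per group was fitted with edgeR 4.0.16 in R 4.3.3 (TMM factors, robust quasi-likelihood, genes kept by filterByExpr over the 4 groups). It gave 2 within-line responses and their difference, two-sided, with Benjamini-Hochberg adjustment over all 16719 tested genes. CPM used each library's total over the tested genes multiplied by its TMM factor (0.969 to 1.034), so levels depend on that scaling. The biological coefficient of variation was 4.27%. With 2 libraries a group, 4 residual degrees of freedom bound the precision.

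Genes named were the 12 opposite genes of each direction with the largest smaller response at a mean log2 CPM of at least 2, up to 4 opposite members of each list and direction, the 6 other interaction genes with the largest difference each way, and a set chosen by name. A few more were named after their values were seen: Gsdma3, Gsdmc2, Gsdmc3, the remaining opposite members of lists, Ldha, Slc2a1, Xbp1, Dnajb9, Derl3, Etv4 and the Ly6 neighbours. Members and gene lists were chosen with earlier results of these data known. Replicate numbers did not pair samples (correlations of replicate differences -0.021 to 0.0763). Counts were simulated with an interaction planted in some genes and none in the rest. There TMM factors shifted the unchanged genes and DESeq2 size factors did not, so calls were also made under 4 scalings. Other alternatives were limma-voom (limma 3.58.1), the DESeq2 1.42.0 Wald test, other filters and thresholds, a replicate block and leaving out each library. Of 32728 genes, 32680 matched GENCODE M21, which gave positions, and promoters came from RefSeq (GRCm38.p6). Some genes are not reported here.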

Additional observations from a re-analysis of the deposited data

Results flagged for a closer look

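Interaction tests between apsMC706 and CTO19 picked the 9366 interaction genes, the 2220 opposite genes and, among them, the single genes with the largest values. These were selected for size from 16719 tests, and no independent sample was there to measure them again. Groups of 2 libraries allow no test for a sample that stands apart.

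The log2 interactions of the leading genes that rose in CTO19 were 6.79 for Gsdma, 5.17 for Rbp2, 4.66 for Chit1, 5.06 for Coro2b, 5.04 for Tgm5, 4.74 for Cpn1, 2.89 for Lfng, 4.74 for Klk10, 3.42 for Sema3a, 2.65 for Fabp5, 3.17 for Adamts7 and 4.09 for Hoxa10. Those of genes that rose in apsMC706 were -4.40 for Tigit, -4.16 for Vegfa, -4.45 for Enpp1, -4.30 for Emp3, -4.13 for Rasa4, -4.18 for P4ha1, -3.50 for Cav1, -5.73 for Ngfr, -3.93 for Tns4, -5.64 for Mmp13, -4.56 for Fst and -7.15 for Wnt7a.

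Among genes that were not opposite, the largest were 6.94 for Ugt1a6b, 5.98 for Nts, 5.79 for Nrep, 5.51 for Hoxa11os, 5.51 for Calm4 and 5.34 for Tgfb2, and on the other side -6.26 for Muc4, -6.22 for Il24, -5.95 for Bnc1, -5.50 for Oaf, -5.50 for Arhgdib and -5.41 for Tgfbi. For genes with a group near the floor of 3 counts these fitted values depend on the prior count and are no bounds.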

How the results depend on the processing

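No gene called opposite was called opposite in the reverse sense under any of the 20 alternatives. That count leaves out genes that lost their call, whatever their signs. The 0.01 threshold and the test against a fold of 1.5 use the same fold changes, so they could not show a reversal. Opposite genes numbered 2222 with DESeq2 size factors, 2222 with upper-quartile factors, 2212 with TMM against a CTO19 library (an alternative chosen after seeing the data), 2276 without a filter, 2179 with a stricter filter, 2219 with limma-voom and 1711 with the DESeq2 Wald test, where 617 were higher in CTO19. At an adjusted p under 0.01 there were 1592, 650 of them higher in CTO19. When tested against a fold of 1.5, 3194 genes passed the interaction and 212 were opposite, 71 higher in CTO19 and 141 higher in apsMC706; the stricter null makes these fewer by construction. With a replicate block there were 9406 interaction genes and 2251 opposite genes, although replicate numbers did not pair the samples. Leaving out 1 library gave 8288 to 9231 interaction genes and 1837 to 2207 opposite genes, 783 to 983 higher in CTO19 and 1038 to 1380 higher in apsMC706; the lone library was assumed to vary like the others. The stricter filter moved the median apsMC706 response by 0.121 on the log2 scale. For the 164 named genes, 2892 of the interaction calls held, 50 no longer passed and 1 newly passed. Having 2 libraries a group, low counts and unknown culture replication limits precision.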

Other observations

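Among biotypes, 1837 of 14097 protein-coding genes were opposite, 937 of them higher in CTO19 and 900 higher in apsMC706. Exons shared with another gene were as frequent among the opposite genes (20.4%) as among tested genes (21.2%). The fibroblast markers did not move together in CTO19. Dcn was 0.0843 to 0.116 CPM in CTO19 EM and 9.49 to 10.3 in noEGF, and Postn 0.0868 and 0.112 against 4.12 and 3.45. Acta2 was 31.8 and 30.3 CPM in CTO19 EM and 29.4 and 27.4 in noEGF, and Pdgfra 1.39 and 1.10 against 0.754 and 0.820. Col1a1 was 0.261 and 0.253 CPM in CTO19 EM and 0.296 and 0.323 in noEGF.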
